A study of Mus musculus with 18 samples.

Results

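Adenosine and NAD ectoenzyme genes are described here as 7 genes among 27179 listed: the surface enzyme genes Cd38, Entpd1 and Nt5e, the adenosine receptor genes Adora2a and Adora2b, and the clearance enzyme genes Ada and Pnp. They were found by matching each symbol to its Entrez identifier, and all 7 were among the 11735 genes that passed the filter on low counts. The genes were chosen by their roles, with no stated threshold and with their earlier levels and calls in these libraries known. Every adjusted p below is therefore a gene's place in the fit over all tested genes and no independent support for the choice of genes.

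The measurement was 3′ messenger RNA sequencing, which reads the polyadenylated end of each transcript, of mouse CD4 T cells activated in culture. Naive cells were stimulated for 3.5 days by coated antibodies to CD28 and CD3, then sorted. All mice carried floxed Maf (Maf fl/fl). The 6 groups of 3 libraries were Tfh5 labelled Cre-positive, Tfh5 labelled Cre-negative, Tfh1 labelled Cre-positive, Tfh1 labelled Cre-negative, TfhA labelled Cre-positive and TfhA labelled Cre-negative, where Tfh5, Tfh1 and TfhA (Tfh_5, Tfh_1 and Tfh_A in the labels) are culture conditions. The sources used here give neither their composition nor the age of the mice. The CD4Cre transgene is driven by Cd4 regulatory elements, which are active from a thymic precursor stage onwards, so floxed sequence is removed in T cells generally and before the culture begins. Replicate numbers were 1, 3 and 6 with the label Cre-positive and 2, 4 and 5 with the label Cre-negative. Nothing states that they came from separate animals, and p-values then reflect only how these libraries vary, which may be technical.

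Maf RNA went against the genotype labels. The 9 libraries labelled Cre-positive held 12405.3 Maf counts in all, against 17.33 in the 9 labelled Cre-negative. By culture, the label Cre-positive had 2627.17, 2547 and 2469.5 Maf counts under Tfh5 and 1667, 1644.33 and 1203.33 under Tfh1. Under TfhA it had only 125, 80 and 42, against 2, 0 and 0 with the label Cre-negative. Every direction between genotypes below is therefore one between labels. Total counts were 6424874 to 9236153 per library, of which the 2 most abundant identifiers took 19.7% to 46.2%. Under TfhA this share was 46.17%, 36.15% and 27.42% with the label Cre-positive and 33.74%, 19.7% and 21.88% with the label Cre-negative. In the Tfh5 and Tfh1 libraries it was 33.07% to 43%. All 11 CD4 T cell markers were above 0 in every group. Cd4 itself ran from 49.4 to 200.4 CPM, which are counts scaled to an effective library size.

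Cells release ATP and NAD, and ectoenzymes on the cell surface turn both into adenosine. CD39, the product of Entpd1, strips ATP to AMP, and CD73, the product of Nt5e, strips AMP to adenosine, while CD38 consumes NAD and feeds a second route to AMP. Adenosine acts on T cells through receptors that raise cyclic AMP, chiefly the one encoded by Adora2a, and is known for restraining T cell activation. Adenosine deaminase (Ada) turns adenosine into inosine, and purine nucleoside phosphorylase (Pnp) splits inosine.

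The adenosine receptors differed in opposite directions between the labels under Tfh5. Libraries labelled Cre-positive held Adora2a counts and 0 Adora2b counts, while libraries labelled Cre-negative held Adora2b counts and 0 Adora2a counts. A group at 0 still allows up to 3 counts in all, its floor. Both receptors had their highest group means under TfhA, and Nt5e and Cd38 had their lowest there. Nt5e rose under Tfh5 relative to TfhA with either label. Pnp was not called in any comparison, and Entpd1 and Ada held few counts, with many libraries at 0.

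Adora2a (Entrez 11540, mm10 chr10:75316877-75334792, plus strand) encodes the high-affinity adenosine receptor of T cells, which couples to the stimulatory G protein. Under Tfh5, libraries labelled Cre-positive held 116, 67 and 60 Adora2a counts (replicates 1, 3 and 6), against 0, 0 and 0 counts in libraries labelled Cre-negative (replicates 2, 4 and 5). Every library with the first label was above every library with the second. The group totals were 243 against 0 counts, at least 76.03-fold higher with the label Cre-positive when the empty group is set at its floor of 3 counts, which is 0.145 CPM. Such a bound, here and below, covers counting error only and not the spread between libraries. In edgeR's quasi-likelihood test with Benjamini-Hochberg adjustment the gene was called, meaning an adjusted p under 0.05 (log2 difference 9.40 ± 1.501 SE, adjusted p = 0.000157). The call was lost in a fit of only the 6 libraries compared (9.34 ± 2.01, adjusted p = 0.0636). A log2 value for a gene with an empty group depends on the small count the fit adds, so it is no estimate of size. In bulk RNA, fewer cells carrying a transcript and less transcript per cell cannot be told apart.

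Under Tfh1, Adora2a had 147, 102.14 and 37 counts with the label Cre-positive, against 0, 23 and 42 counts with the label Cre-negative. In CPM the groups did not overlap (13.5 ± 6.54 against 3.06 ± 2.86, SD, n = 3 each), a separation that 7.73% of tested genes showed in this direction. The difference was not called (2.13 ± 0.87, adjusted p = 0.373). Under TfhA, Adora2a had 117, 338 and 277 counts with the label Cre-positive, against 87, 187 and 192 with the label Cre-negative. The CPM again did not overlap (29.5 ± 7.09 against 16.7 ± 4.27), as for 6.15% of tested genes in this direction, and the difference was not called (0.82 ± 0.83, adjusted p = 1). The Adora2a levels with the label Cre-positive thus lay above those with the label Cre-negative in all 3 cultures, and the difference was called in 1 of them.

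Between cultures, Adora2a fell under Tfh5 relative to TfhA in libraries labelled Cre-negative, with 0 against 466 counts, at least 118-fold lower (log2 difference -9.96 ± 1.503, adjusted p = 2.42e-05). It also fell under Tfh5 relative to Tfh1 with that label, with 0 against 65 counts (-7.53 ± 1.52, adjusted p = 0.00998), although Tfh1 replicate 2 also held 0 counts and the libraries overlapped. Without Tfh1 replicate 5, which held 42 of those counts, this call was lost (adjusted p = 0.0680), as it was with limma-voom (adjusted p = 0.335). Lower without overlap but not called by edgeR was Adora2a under Tfh5 relative to TfhA with the label Cre-positive (-1.38 ± 0.84, adjusted p = 0.404). The same held for Tfh1 relative to TfhA with the label Cre-positive (-1.13 ± 0.84, adjusted p = 0.623) and Cre-negative (-2.43 ± 0.88, adjusted p = 0.185). Such separations were seen in 11.6%, 9.76% and 12.2% of tested genes. The order of the group means was TfhA Cre-positive, TfhA Cre-negative, Tfh1 Cre-positive, Tfh5 Cre-positive, Tfh1 Cre-negative and Tfh5 Cre-negative. Neighbours overlapped between TfhA Cre-negative and Tfh1 Cre-positive, between Tfh1 and Tfh5 Cre-positive and between the last pair.

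Adora2b (Entrez 11541, mm10 chr11:62248984-62266452, plus strand) encodes the low-affinity adenosine receptor, which responds when extracellular adenosine is abundant. Under Tfh5 it had 0, 0 and 0 counts with the label Cre-positive, against 44, 76 and 72 with the label Cre-negative. The group totals were 0 against 192 counts, at least 68.2-fold lower with the label Cre-positive, where the empty group's floor is 0.136 CPM (log2 difference -9.15 ± 1.25, adjusted p = 1.25e-05), and this call too was lost in a fit of only those 6 libraries (adjusted p = 0.0954). Under Tfh1 it had 50, 47 and 36 counts, against 23, 58 and 120, and the groups overlapped (-0.56 ± 0.70, adjusted p = 0.922). Under TfhA it had 178, 258 and 142 counts, against 221, 317 and 148, with means of 25.2 ± 7.78 and 25.7 ± 9.51 CPM (-0.03 ± 0.69, adjusted p = 1). The empty group was therefore 1 of 6, and the 3 libraries labelled Cre-positive under Tfh5 were the only ones with no Adora2b count.

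In libraries labelled Cre-positive, Adora2b fell under Tfh5 relative to TfhA (0 against 578 counts, at least 179-fold lower, log2 difference -10.55 ± 1.26, adjusted p = 2.54e-07) and relative to Tfh1 (0 against 133 counts, at least 47.7-fold lower, -8.60 ± 1.25, adjusted p = 4.32e-05). The call relative to Tfh1 was lost in a fit of only the libraries compared (adjusted p = 0.186). Under Tfh1 relative to TfhA with that label the libraries did not overlap either (6.50 ± 0.83 against 25.2 ± 7.78 CPM), as for 9.76% of tested genes in this direction, and the gene was not called (-1.95 ± 0.72, adjusted p = 0.174). With the label Cre-negative, Adora2b averaged 9.52 ± 3.36 CPM under Tfh5, 9.61 ± 6.24 under Tfh1 and 25.7 ± 9.51 under TfhA, and neither difference from TfhA was called (adjusted p = 0.317 and 0.420). In the order of group means the TfhA pair overlapped, as did each neighbouring pair among Tfh1 Cre-negative, Tfh5 Cre-negative and Tfh1 Cre-positive. The lowest TfhA Cre-positive library (17.0 CPM) lay just above the highest Tfh1 Cre-negative library (16.2 CPM).

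The promoter of Adora2b is shown because it is the member with the lowest adjusted p. The 250 bases before its start in the RefSeq promoter table (GRCm38.p6, chr11:62248734-62248983, plus strand) are printed 5′ to 3′, with the GC box GGGCGG, searched on both strands, in capitals.
Adora2b: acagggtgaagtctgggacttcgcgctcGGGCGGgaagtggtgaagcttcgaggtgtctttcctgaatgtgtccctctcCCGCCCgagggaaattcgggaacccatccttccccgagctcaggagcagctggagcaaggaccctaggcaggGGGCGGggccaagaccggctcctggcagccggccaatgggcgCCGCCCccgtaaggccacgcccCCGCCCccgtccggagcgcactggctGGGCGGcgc
The window held 6 GC boxes and 22 CpG pairs, and its GC content was 69.6%. A GC box occurred in 32.7% of 32851 windows of the same length, and the median window held 6 CpG pairs. The core TGCTGA of the Maf recognition element (16.1% of windows), the AP-1 site TGANTCA (6.75%), the cyclic AMP element TGACGTCA (1.55%), the STAT site TTCNNNGAA (7.02%), the hypoxia core ACGTG (16.6%) and the SMAD site GTCTAGAC (0.167%) were searched on both strands, and these letters were not in this window. The Maf core shares TGA with the AP-1 site, and the cyclic AMP element shares ACGT with the hypoxia core. Of the 7 genes, 6 had a window in the table, and among those the Maf core occurred in the Pnp window, 214 to 209 bases before the start.

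Whether the difference between labels itself differed between cultures was tested for each receptor alone. Adora2a was not tested against Adora2b. For Adora2a the genotype effect under Tfh5 exceeded that under TfhA by 8.58 ± 1.76 on the log2 scale (adjusted p = 0.00623), and for Adora2b it was lower by a log2 difference of -9.12 ± 1.46 (adjusted p = 0.000252). Against Tfh1, the difference was -8.59 ± 1.47 for Adora2b (adjusted p = 0.00460) and 7.28 ± 1.79 for Adora2a (adjusted p = 0.117), so that only Adora2b was called there. That call was lost with limma-voom (adjusted p = 0.123) and in a fit of only the groups compared (adjusted p = 0.278). Each of these values rests on an empty group. The genotype effects under Tfh1 and TfhA were not called as different for any of the 7 genes in edgeR, and DESeq2 and limma-voom also called 0. At an unadjusted edgeR p under 0.05 stood 1 of the 7, beside 826 of the 11735 tested genes.

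**Figure D1:**
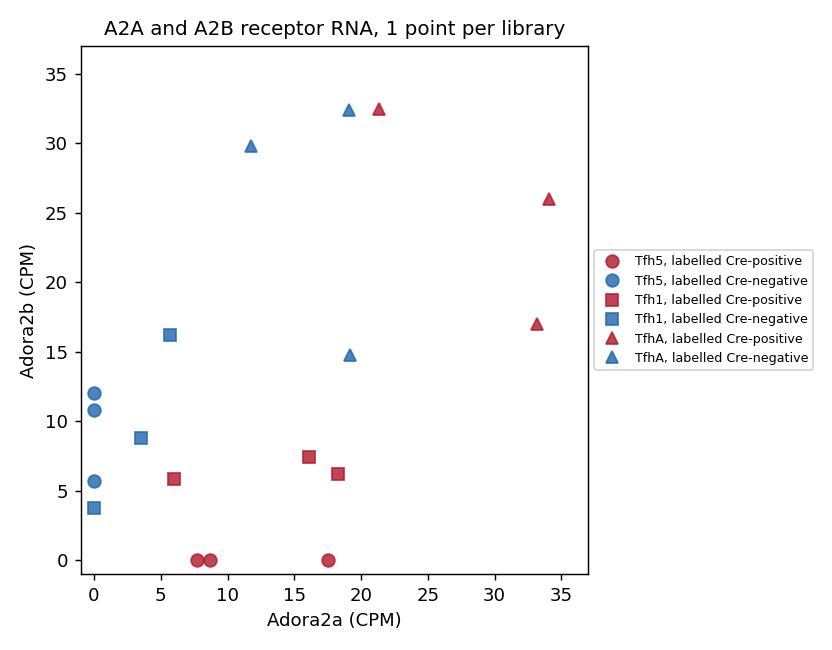
Adora2b against Adora2a in each of the 18 libraries, both in CPM, with the shape for the culture and the colour for the genotype label. The 3 Tfh5 libraries labelled Cre-positive lie at 0 on the Adora2b axis, the 3 Tfh5 libraries labelled Cre-negative lie at 0 on the Adora2a axis together with 1 Tfh1 library of that label, and the TfhA libraries lie towards the upper right.

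Empty libraries were common at this abundance, which bears on both receptors. Of 1901 tested genes with totals of at least 1000 and under 2000 counts over the 18 libraries, the range in which Cd38, Adora2a and Adora2b fall, 605 (31.8%) had at least 1 library at 0, and 574 (30.2%) had a library at 0 beside one of 20 or more counts in the same group. A whole group at 0 with at least 10 counts in each library of the compared group was counted differently. It was taken over all tested genes rather than those 1901, for a single comparison and direction at a time. The shares below therefore cannot be set against those above. For the Tfh5 genotype comparison, 0.162% of tested genes showed it as Adora2a did, empty with the label Cre-negative, and 0.29% as Adora2b did, empty with the label Cre-positive. Under Tfh5 relative to TfhA it was seen, with Tfh5 empty, in 1.08% of genes in libraries labelled Cre-positive, as for Adora2b, and in 0.699% in libraries labelled Cre-negative, as for Adora2a. Under Tfh5 relative to Tfh1 with the label Cre-positive it was seen in 0.17%. These shares were computed after the empty groups had been seen.

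Nt5e (Entrez 23959, mm10 chr9:88327609-88372089, plus strand) encodes CD73, the enzyme that completes the surface route to adenosine and marks subsets of mouse CD4 T cells. It was above 0 in all 18 libraries. Under Tfh5, libraries labelled Cre-positive held 798, 770 and 1767 counts, against 656, 255 and 395 with the label Cre-negative. Under Tfh1 they held 793, 458 and 498 counts, against 255, 60 and 135. Under TfhA they held 2, 26 and 163.17 counts, against 19, 39 and 15. The TfhA libraries were thus the lowest, except that Tfh1 Cre-negative replicates 4 and 5 held fewer counts than TfhA Cre-positive replicate 6.

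In libraries labelled Cre-positive, Nt5e averaged 149.5 ± 68.8 CPM under Tfh5 and 7.50 ± 10.5 CPM under TfhA (SD, n = 3 each), a rise of 4.29 ± 0.96 on the log2 scale (adjusted p = 0.0166). With the label Cre-negative it averaged 62.4 ± 24.5 CPM under Tfh5 and 2.68 ± 1.25 CPM under TfhA, a rise of 4.53 ± 0.995 (adjusted p = 0.0158). Each call depended on single libraries. The first was lost without Tfh5 replicate 6 (adjusted p = 0.0512) or TfhA replicate 3 (adjusted p = 0.0827), and the second without TfhA replicate 2, 4 or 5 (adjusted p = 0.0787, 0.0606 and 0.109), with log2 differences between 3.86 and 4.98 in these 5 fits. Without TfhA replicate 6, at 19.5 CPM the highest of its group, the first was 6.495 ± 0.77 (adjusted p = 5.07e-06). Without overlap but not called were the differences under Tfh1 relative to TfhA, 3.46 ± 0.93 with the label Cre-positive (adjusted p = 0.0727) and 3.10 ± 0.95 with the label Cre-negative (adjusted p = 0.145), a separation seen in 9.06% and 10.4% of tested genes in this direction. The first of these was called without TfhA replicate 6, which held 163.17 of the group's counts (5.66, adjusted p = 8.81e-05).

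Between labels, Nt5e did not overlap under Tfh5 (149.5 ± 68.8 against 62.4 ± 24.5 CPM, log2 difference 1.26 ± 0.84, adjusted p = 0.560) or Tfh1 (84.0 ± 13.3 against 23.1 ± 17.0 CPM, 1.86 ± 0.86, adjusted p = 0.471), with the label Cre-positive higher in both. Neither was called, and 7.98% and 7.73% of tested genes were separated in this direction. Both were called with limma-voom (adjusted p = 0.0279 under Tfh5 and 0.0277 under Tfh1) and without the filter on low counts (0.0167 and 9.53e-05). Under TfhA the libraries overlapped (7.50 ± 10.5 against 2.68 ± 1.25 CPM, adjusted p = 1). The group means ran in the order Tfh5 Cre-positive, Tfh1 Cre-positive, Tfh5 Cre-negative, Tfh1 Cre-negative, TfhA Cre-positive and TfhA Cre-negative. The lowest Tfh5 Cre-positive library (99.9 CPM) lay just above the highest Tfh1 Cre-positive library (98.5 CPM), a separation seen in 7.22% of tested genes in this direction, and all later neighbours overlapped.

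Cd38 (Entrez 12494, mm10 chr5:43868809-43912374, plus strand) encodes the enzyme that breaks down NAD outside the cell and is a marker of activated lymphocytes. Under Tfh5 it had 8, 130 and 237.24 counts with the label Cre-positive, against 111, 182 and 59 with the label Cre-negative. Under Tfh1 it had 76.17, 106 and 51 counts, against 124, 44 and 37. Under TfhA it had 27, 0 and 0 counts, against 0, 0 and 0. The labels overlapped in each culture, and 5 of the 6 TfhA libraries held no count.

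With the label Cre-negative, Cd38 rose under Tfh5 relative to TfhA (352 against 0 counts, at least 154-fold higher, log2 difference 9.97 ± 1.99, adjusted p = 0.00148) and under Tfh1 relative to TfhA (205 against 0 counts, at least 92.8-fold higher, 9.32 ± 1.97, adjusted p = 0.00558). A group at 0 against at least 10 counts in each library was seen in 0.222% and 0.119% of tested genes in these directions. With the label Cre-positive the differences from TfhA were 3.36 ± 1.31 under Tfh5 (adjusted p = 0.158) and 2.86 ± 1.29 under Tfh1 (adjusted p = 0.313), and neither was called. These rested on TfhA replicate 1, whose 27 counts were the group's only ones, and without it both were called (adjusted p = 0.00101 and 0.00307). With all libraries kept, limma-voom called both (adjusted p = 0.0249 and 0.0284). Without the filter on low counts, edgeR called the difference under Tfh5 (adjusted p = 0.0362). Between labels no difference was called, including under TfhA (27 against 0 counts, all 27 from 1 library labelled Cre-positive, adjusted p = 0.587). By group mean the order was Tfh5 Cre-negative, Tfh5 Cre-positive, Tfh1 Cre-positive, Tfh1 Cre-negative, TfhA Cre-positive and TfhA Cre-negative. The lowest Tfh1 Cre-negative library (4.996 CPM) lay just above the highest TfhA Cre-positive library (4.93 CPM), and all other neighbours overlapped.

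**Figure D2:**
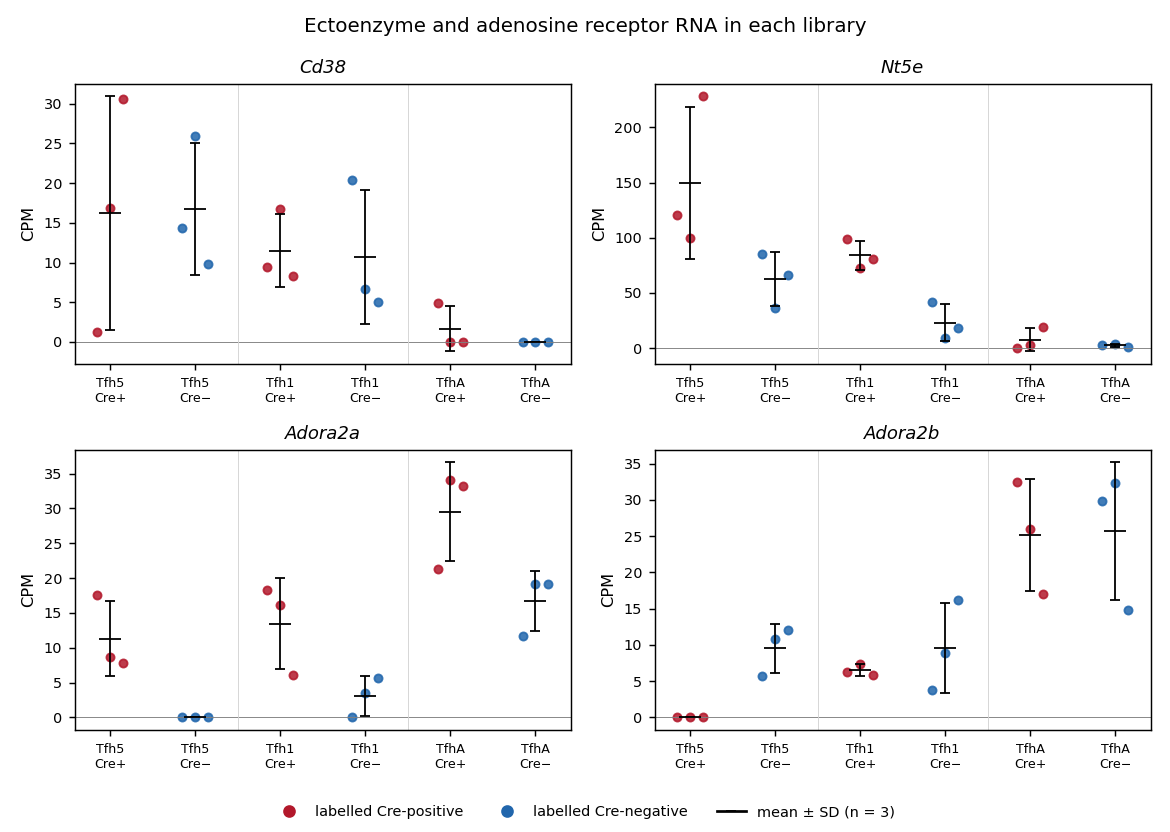
CPM of Cd38, Nt5e, Adora2a and Adora2b in each library by culture and genotype label, with the mean and SD of the 3 libraries of each group as bars. Nt5e reached 228 CPM under Tfh5 and stayed at or below 19.5 CPM under TfhA, Cd38 was at 0 in 5 of 6 TfhA libraries, and each receptor had 1 group of Tfh5 libraries at 0.

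Entpd1 (Entrez 12495, mm10 chr19:40612366-40741602, plus strand) encodes CD39, which begins the ATP route. Under Tfh5 it had 19, 95 and 0 counts with the label Cre-positive, against 6, 0 and 16 with the label Cre-negative. Under Tfh1 it had 38.33, 2 and 0.12 counts, against 0, 69 and 23, and under TfhA 0, 7 and 0, against 0, 7 and 27.33. Libraries at 0 after rounding and libraries with counts occurred together in every group, and 309.78 counts in all were spread over the 18 libraries. No comparison called it, the smallest adjusted p being 0.398 for Tfh5 relative to TfhA with the label Cre-positive. In 4 of the 6 groups a library at 0 stood beside one of 20 or more counts.

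Ada (Entrez 11486, mm10 chr2:163726571-163750239, minus strand) encodes the deaminase that removes adenosine. Under Tfh5 it had 11, 0 and 15 counts with the label Cre-positive, against 15, 36 and 0 with the label Cre-negative. Under Tfh1 it had 0, 0 and 0 counts, against 47.5, 3 and 0, and under TfhA 0, 0 and 0, against 17, 0 and 17. It was at 0 in 10 of 18 libraries, and both groups without a count carried the label Cre-positive. The largest such difference, under Tfh1, was 0 against 51 counts, most of them from replicate 2, while replicate 5 held 0. The libraries thus overlapped, and the difference was not called (adjusted p = 0.438).

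Pnp (Entrez 18950, mm10 chr14:50944303-50953412, plus strand) encodes the phosphorylase that splits inosine and guanosine. Its deposited values under Tfh5 were 163.49, 268.35 and 517.08 with the label Cre-positive, against 462.26, 347.94 and 264.15 with the label Cre-negative. Under Tfh1 they were 139.46, 172.94 and 289.39, against 170.56, 258.96 and 285.96, and under TfhA 216.73, 478.6 and 388.1, against 370.24, 323.16 and 470.47. Group means lay between 30.5 and 51.2 CPM and all neighbours in their order overlapped. No comparison called Pnp, and the log2 differences lay between -0.55 ± 0.39 (Tfh1 relative to TfhA, Cre-positive) and 0.53 ± 0.39 (Tfh5 relative to Tfh1, Cre-negative).

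The Pnp values were not whole in any of the 18 libraries, so its level is uncertain. In the GENCODE annotation, which may not be the one counted, Pnp shares 718 exon bases on the same strand with the protein-coding gene Gm49342. Its neighbour Pnp2 (chr14:50956141-50964751) is a close copy: the longest transcripts were 89.2% identical over 1357 aligned bases, although the last 300 bases, where 3′ reads fall, were 54.1% identical over 244 aligned bases. Pnp2 itself was not whole in 1 of the 18 libraries. Pnp2 had 14, 2 and 0 counts under Tfh5 with the label Cre-positive, against 6, 0 and 0 with the label Cre-negative, and 0, 0 and 7 under Tfh1, against 3, 0 and 16.2. Under TfhA it had 37, 37 and 57 counts, against 70, 74 and 40. All 6 TfhA libraries lay above all 12 others, with means of 5.77 ± 1.77 and 6.999 ± 2.77 CPM, a separation seen in 11.6% and 9.76% of tested genes (Tfh5 and Tfh1 lower, label Cre-positive) and in 13.9% and 12.2% (label Cre-negative), and no difference from TfhA was called (adjusted p = 0.336 to 0.696).

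**Figure D3:**
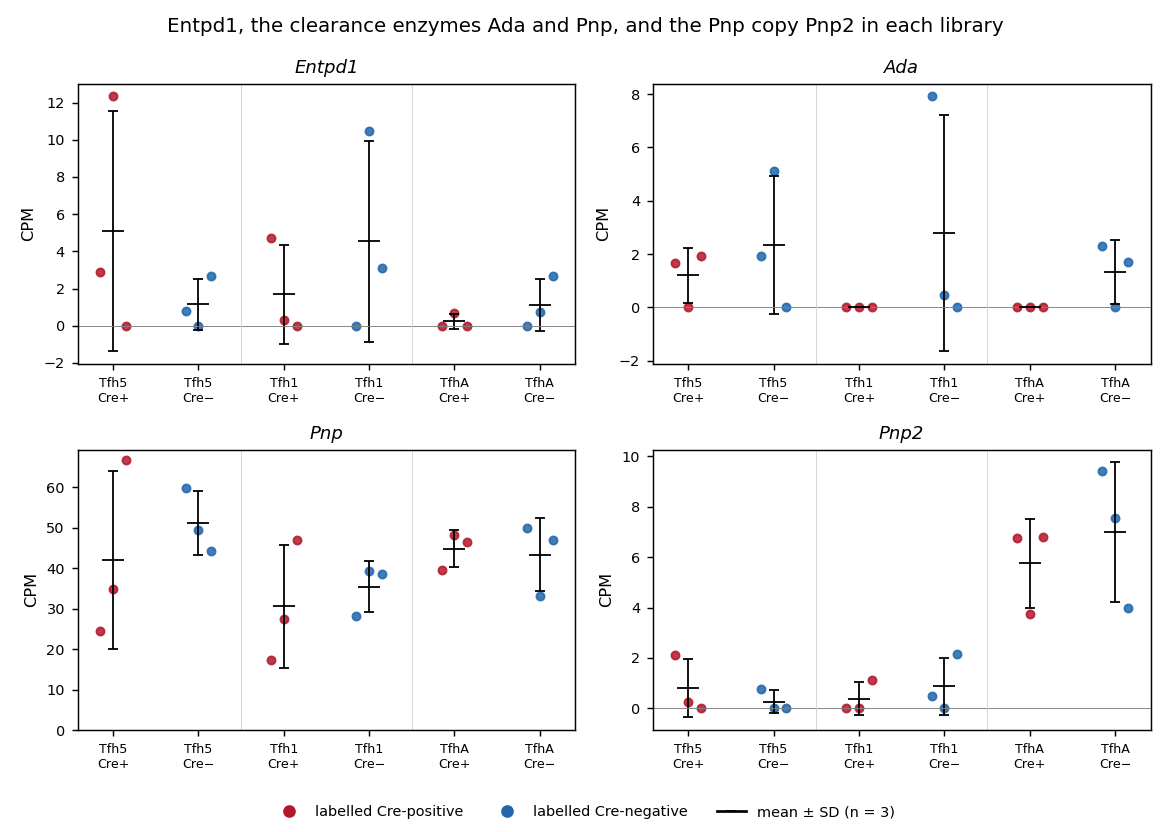
CPM of Entpd1, Ada, Pnp and the Pnp copy Pnp2 in each library by culture and genotype label, with the mean and SD of the 3 libraries of each group as bars. Entpd1 and Ada stayed at or below 12.3 and 7.92 CPM with many libraries at 0, Pnp lay between 17.3 and 66.7 CPM in all groups, and Pnp2 was highest under TfhA.

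Read over the 7 genes, the genotype comparison called 2 under Tfh5 (1 higher, 1 lower with the label Cre-positive), where 3.24% of all tested genes were called. It called 0 under Tfh1 (background 0.852%) and 0 under TfhA (background 0%). In each, 2 of the 7 had an unadjusted edgeR p under 0.05, as did 1243 of the 11735 tested genes under Tfh1 and 606 under TfhA. DESeq2 called 0 and limma-voom 1 of the 7 under Tfh1, and both called 0 under TfhA. Backgrounds here and below are shares called by edgeR, and those of the other methods are not given. The median log2 difference of the 7 was -0.04, -0.22 and 0.05 in Tfh5, Tfh1 and TfhA, beside 0, -0.02 and 0 over all tested genes.

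In libraries labelled Cre-positive, 2 of the 7 were called for Tfh5 relative to TfhA (Nt5e higher, Adora2b lower, background 5.39%). For Tfh1 relative to TfhA 0 were called (background 2.57%), with 3 of the 7 and 1639 of the 11735 tested genes at an unadjusted edgeR p under 0.05. DESeq2 and limma-voom each called 2 of the 7 there. For Tfh5 relative to Tfh1, 1 was called (Adora2b lower, background 1.75%). In libraries labelled Cre-negative, 3 were called for Tfh5 relative to TfhA (Cd38 and Nt5e higher, Adora2a lower, background 5.08%), 1 for Tfh1 relative to TfhA (Cd38 higher, background 2.23%) and 1 for Tfh5 relative to Tfh1 (Adora2a lower, background 0.554%). For the differences between genotype effects the backgrounds were 1.19% between Tfh5 and TfhA with 2 of the 7 called, 0.239% between Tfh1 and TfhA with 0 called and 0.0597% between Tfh5 and Tfh1 with 1 called. The comparisons share groups of libraries, so these counts are not separate pieces of evidence. The median log2 difference of the 7 was largest for Tfh5 relative to TfhA with the label Cre-positive, at 3.36 beside -0.05 over all tested genes, and lay between -0.02 and 1.06 in the other 5 treatment comparisons. The 3.36 is the value of Cd38, which was not called. Above it lay Nt5e and the sparse Entpd1 and Ada, and below it Pnp, Adora2a and Adora2b.

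**Figure D4:**
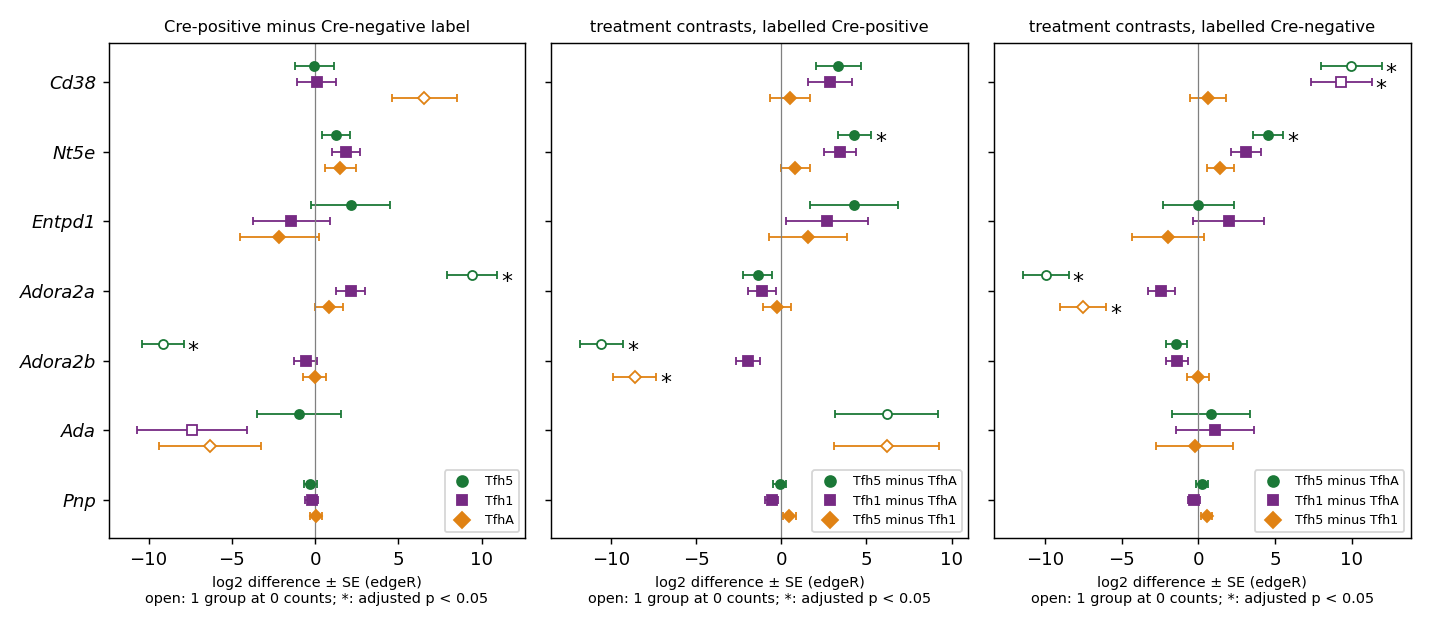
Log2 differences with SE from edgeR for the 7 genes, in the genotype comparison of each culture (left), the culture comparisons with the label Cre-positive (middle) and those with the label Cre-negative (right). Open symbols mark comparisons in which 1 group held 0 counts, whose log2 value depends on the count added by the fit, and asterisks mark adjusted p under 0.05. Calls stand at Cd38, Nt5e, Adora2a and Adora2b, and the Pnp points lie near 0.

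Markers of other cells moved with some of these groups. The 8 markers of natural killer and innate lymphoid cells summed to 168 to 245 CPM in the TfhA libraries and to 16.6 to 74.5 CPM in the other 12, with 3 to 5 of the 8 above 0 per group. Nkg7, a granule gene, accounted for most of it (141 to 217 CPM under TfhA, 0 to 25.8 CPM elsewhere), while Ncr1, which defines natural killer cells, was at 0 in all 18 libraries. Klrd1, a receptor gene of the same list, went the other way, with 7.97 to 19.5 CPM under TfhA, 25.1 to 52.8 CPM under Tfh1 and 8.43 to 31.9 CPM under Tfh5. The 10 regulatory T cell markers summed under Tfh5 to 490 to 608 CPM with the label Cre-positive, against 1050 to 1268 CPM with the label Cre-negative, and under Tfh1 to 806 to 981 against 1245 to 1378 CPM. Il2ra carried much of that under Tfh5 (223 to 266 against 660 to 887 CPM), while Foxp3 held 13 counts in all 18 libraries. Ikzf4 (19.3 to 31.1 against 0.502 to 12.5 CPM) and Nrp1 (5.13 to 18.8 against 0 to 4.79 CPM) of that list went the other way there. The CD4 T cell markers summed to 3612 to 3958 CPM under Tfh5 with the label Cre-positive, against 2491 to 2901 CPM with the label Cre-negative, and under Tfh1 to 3795 to 4408 against 2299 to 2699 CPM. Not all 11 went this way: edgeR called 2 higher and 1 lower under Tfh5, beside 3.24% of all tested genes. Under Tfh1 it called 2 higher and 0 lower, beside 0.852%. The sum of the myeloid and dendritic cell list also separated the labels under Tfh5, at 0 to 9.34 against 13.5 to 18.7 CPM. Only 4 of its 16 markers were tested, and edgeR called 0 of these, beside 3.24% of all tested genes. The B cell sum separated the labels under Tfh1, at 0.124 to 7.27 against 15.8 to 29.7 CPM, with Ebf1 at 0 against 15.8 to 24.3 CPM. The erythroid sum did so under TfhA, at 0 to 0.183 against 1.02 to 4.99 CPM. Per library, the smaller lists summed to at most 20.5 (CD8 T cells), 34.7 (B cells), 22.8 (myeloid and dendritic cells), 9.24 (γδ T cells) and 4.99 CPM (erythroid cells), with Cd8a at 18 and Lyz2 at 0 counts in all. Separations of such sums have no share over all tested genes to set beside them. The part of these markers in the results above was not tested.

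Genes with the most similar profile were taken as the 3 highest Pearson r of log2(CPM + 1) over the 18 libraries, among genes of at least 10 CPM on average. These points share libraries and groups, so r is a description. Adora2a was most like Icos, a costimulatory receptor gene of activated T cells (r = 0.899), Cd4 (0.889) and Zdhhc5, a palmitoyltransferase gene (0.875). Adora2b was most like Ly6a, which encodes the surface antigen Sca-1 (0.947), Tgm2, a transglutaminase gene (0.923), and Hk2, which encodes a hexokinase of glycolysis (0.893). Nt5e was most like Shld1, a subunit gene of the DNA repair complex shieldin (0.931), Timp2, which encodes a metalloproteinase inhibitor (0.901), and Rgs10, which encodes a regulator of G protein signalling (0.884). Cd38 was most like Snord13 (0.884), Tmem176a (0.873) and Nipal1 (0.873). The best values were lower for Pnp (Arfip1, 0.804), Entpd1 (Slain2, 0.753) and Ada (Ppm1g, 0.677).

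Beyond the 7 genes, lists of other surface nucleotide enzymes, intracellular purine enzymes, nucleoside transporters, cyclic AMP signalling genes, P2 receptors and NAD enzymes held 112 genes found in the files, of which 84 were tested. Between labels under Tfh5, 0 were called higher and 2 lower (2.38%, beside 3.24% of all tested genes). Without Tfh5 Cre-negative replicate 5 neither was called, and without Cre-positive replicate 1 only 1 was. Under Tfh1 and TfhA, edgeR called 0 between labels. At an unadjusted edgeR p under 0.05 stood 11 and 2 of the 84, beside 1243 and 606 of the 11735 tested genes. DESeq2 and limma-voom each called 2 under Tfh1 and 0 under TfhA, and the shares of all genes called by these methods are not given. Enpp4, a surface phosphodiesterase gene of the nucleotide pyrophosphatase family, had 0 counts under Tfh5 with the label Cre-positive, against 130 with the label Cre-negative (0 against 6.48 ± 2.80 CPM, log2 difference -8.60 ± 2.29, adjusted p = 0.0271). Ak4, a mitochondrial adenylate kinase gene, averaged 3.43 ± 2.98 against 27.2 ± 10.3 CPM there (-2.98 ± 0.68, adjusted p = 0.0107).

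With the label Cre-positive, 1 of the 84 was called higher and 4 lower for Tfh5 relative to TfhA (5.95%, beside 5.39% of all tested genes), and 2 in all without Tfh5 replicate 1 or 6 or TfhA replicate 3 or 6. Pde3b, which encodes a phosphodiesterase that breaks down cyclic AMP, averaged 100.9 ± 34.2 CPM under Tfh5 and 41.0 ± 12.9 CPM under TfhA (log2 difference 1.30 ± 0.34, adjusted p = 0.0148). Nampt, the rate-limiting enzyme of NAD salvage, averaged 20.9 ± 10.1 CPM under Tfh5 and 57.0 ± 15.03 CPM under TfhA (-1.45 ± 0.38, adjusted p = 0.0157). Ak4 (-3.30 ± 0.69, adjusted p = 0.00275) and Enpp4 (0 against 7.46 ± 2.54 CPM, adjusted p = 0.0149) were also called lower.

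For Tfh1 relative to TfhA with that label, 2 were called higher and 0 lower: Samhd1, which encodes a hydrolase of deoxynucleotides (453 ± 35.7 against 213 ± 7.87 CPM, 1.09 ± 0.20, adjusted p = 0.000767), and P2ry10, a receptor gene of the P2Y-like group (137 ± 16.2 against 54.5 ± 16.0 CPM, 1.33 ± 0.30, adjusted p = 0.00671). They were 2.38% of the 84, beside 2.57% of all tested genes, and 1 was called without TfhA replicate 6. For Tfh5 relative to Tfh1, 0 were called higher and 4 lower (4.76%, beside 1.75%), and in all 2 without Tfh5 replicate 3 or Tfh1 replicate 6 and 1 without Tfh1 replicate 3. Crem, a cyclic AMP response modulator, averaged 73.5 ± 11.01 CPM under Tfh5 and 151 ± 8.66 CPM under Tfh1 (-1.04 ± 0.25, adjusted p = 0.0174). Pde4b, a second cyclic AMP phosphodiesterase gene, averaged 54.9 ± 18.3 CPM under Tfh5 and 140 ± 23.9 CPM under Tfh1 (-1.35 ± 0.36, adjusted p = 0.0473). Ak4 (-3.18 ± 0.69, adjusted p = 0.0106) and Samhd1 (-0.92 ± 0.20, adjusted p = 0.00733) were the other 2.

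With the label Cre-negative, 1 was called higher and 3 lower for Tfh5 relative to TfhA (4.76%, beside 5.08%), and 1 in all without Tfh5 replicate 5 or TfhA replicate 4 or 5. Dpp4, which encodes CD26, a surface peptidase that in humans binds adenosine deaminase, averaged 1.31 ± 1.91 CPM under Tfh5 and 61.5 ± 14.3 CPM under TfhA (-5.49 ± 1.28, adjusted p = 0.0190). Gnas, which encodes the stimulatory G protein subunit downstream of both receptors, averaged 133 ± 22.5 CPM under Tfh5 and 236 ± 47.0 CPM under TfhA (-0.83 ± 0.22, adjusted p = 0.0173). Acpp, an acid phosphatase gene whose product can release adenosine from AMP, averaged 6.89 ± 6.15 CPM under Tfh5 and 0 CPM under TfhA (adjusted p = 0.0425). For Tfh1 relative to TfhA, Crem was the 1 gene called (1.19%, beside 2.23%), higher at 211.5 ± 34.7 against 89.7 ± 14.8 CPM (1.24 ± 0.25, adjusted p = 0.00277). For Tfh5 relative to Tfh1 edgeR called 0, DESeq2 4 and limma-voom 2. There 11 of the 84 had an unadjusted edgeR p under 0.05, beside 1218 of the 11735 tested genes. The 4 tested nucleoside transporters were not called by edgeR in these 9 comparisons. Up to 2 of them had an unadjusted p under 0.05, beside 606 to 2120 of the 11735 tested genes. In the differences between genotype effects edgeR called 0 of the 84, and DESeq2 and limma-voom called 0 to 1. At an unadjusted edgeR p under 0.05 stood 5 to 11, beside 826 to 1284 of the 11735 tested genes. In all, 12 of the 84 (14.3%) were called in at least 1 of the 9 comparisons, beside 10.9% of all tested genes.

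**Figure D5:**
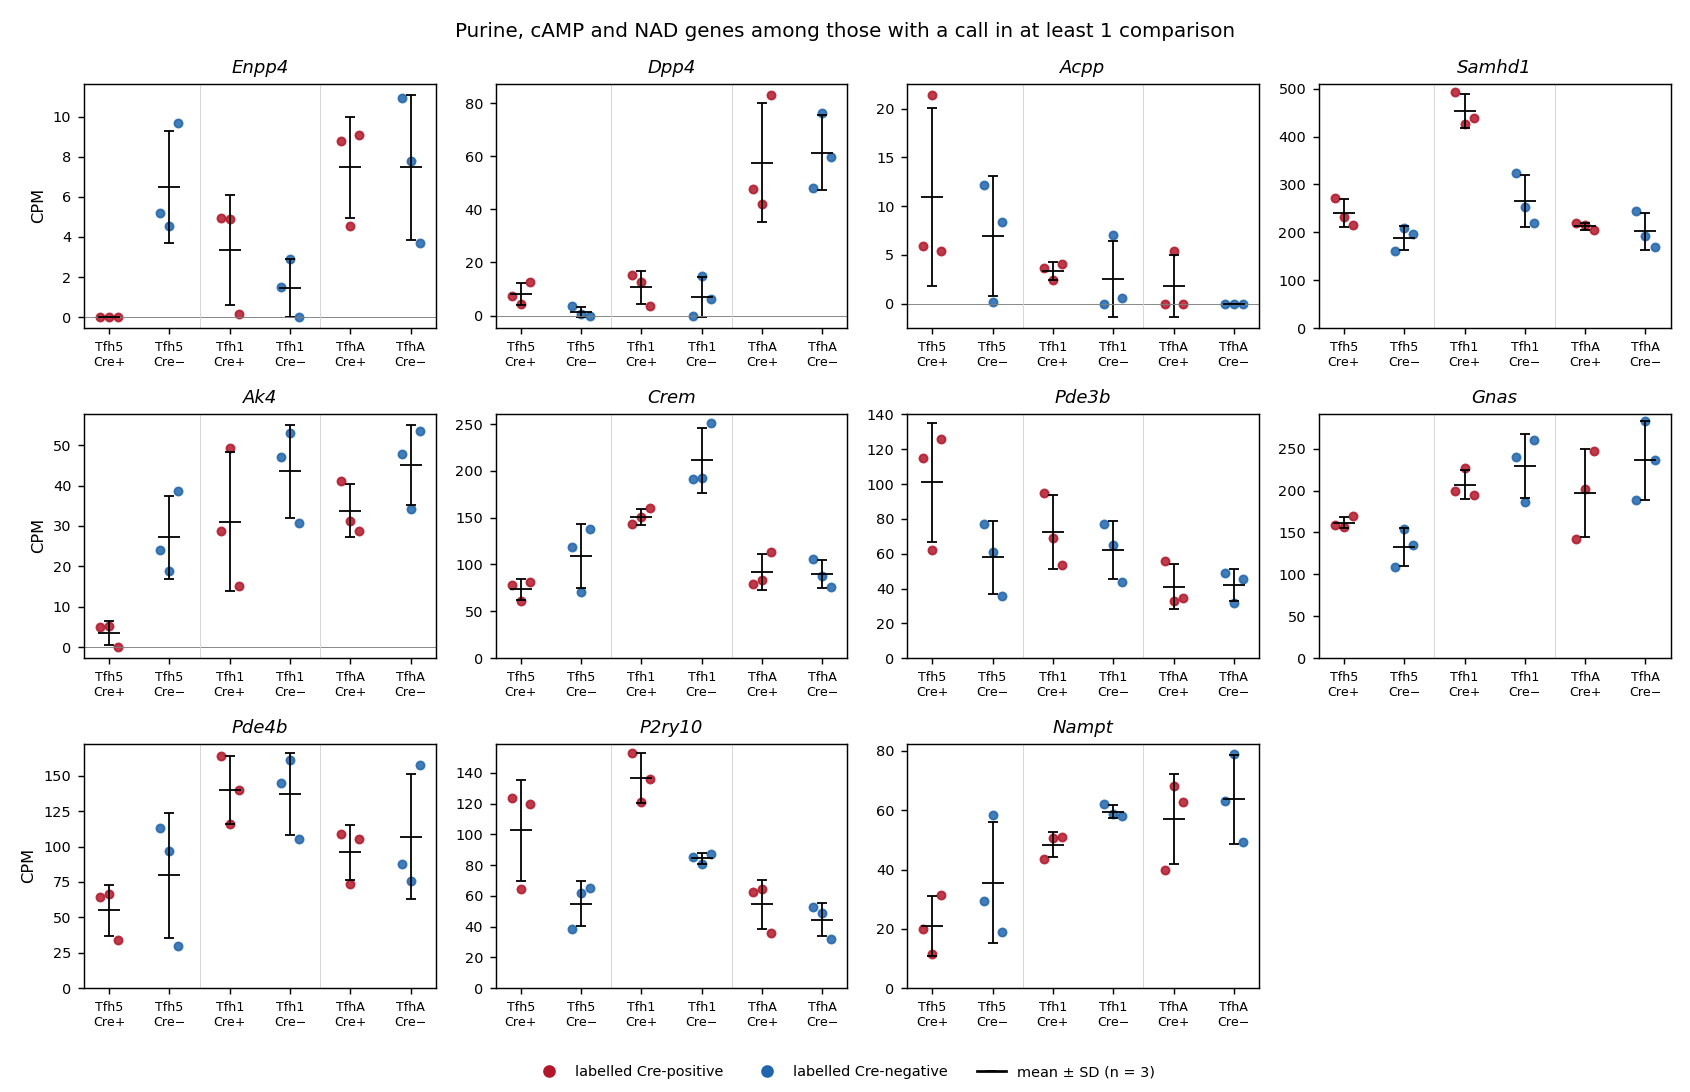
CPM of 11 of the 12 genes of the wider purine, cyclic AMP and NAD lists that were called in at least 1 comparison, in each library by culture and genotype label, with the mean and SD of the 3 libraries of each group as bars. Dpp4 reached 83.3 CPM under TfhA and stayed at or below 15.4 CPM elsewhere, Ak4 was at or below 5.32 CPM only under Tfh5 with the label Cre-positive, and Enpp4 was at 0 there.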

How the data were processed

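RNA of 18 libraries was analysed from the deposited expected counts, 1 table of genes per library. STAR 2.7.2b, featureCounts 1.6.4 and the build mm10 are named in the submitters' processing notes. The roles of these tools, strand use and the division of reads between genes are not given in the sources used here. Between 11.7% and 18.1% of values per library were not whole, and whole counts had been planned for, so values were rounded. Of 27179 Entrez identifiers, 25275 were named through a RefSeq table of GRCm38.p6, and the other 1904 were tested without a name.

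edgeR 4.0.16 in R 4.3.3 fitted 1 mean per group to all 18 libraries (TMM factors 0.830 to 1.389, filterByExpr, robust quasi-likelihood test), with p-values adjusted by the Benjamini-Hochberg method over 11735 genes and a threshold of 0.05. The SE is the log2 difference divided by the square root of F. The common biological coefficient of variation was 0.814. CPM are rounded counts over library size times TMM factor. The procedure was tested on simulated data. Changes were simulated only in genes more abundant than Cd38 or either receptor, and no group was set to 0. Calls that rest on an empty group were thus not covered. A group with 0 counts was set to a floor of 3 counts, and floors cover counting error only.

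The 7 genes and all other lists were chosen with earlier results of these data known. Of 194 list entries, 192 were matched. The genes named are the 7, up to 4 called genes per wider list, Pnp2, the 3 genes most like each of the 7, and Maf, except genes that are not reported here. Defining markers were chosen from the marker lists after their values were seen. Same-numbered libraries did not deviate together (18 pairs, correlations of -0.037 to 0.066), so numbers were not used as pairs. Alternatives were other size factors, no filter, DESeq2 1.42.0, limma-voom (limma 3.58.1), fits of the compared groups alone, a replicate block and leaving out each library. Promoter windows came from RefSeq (GRCm38.p6), and exon positions from the GENCODE annotation. The motif list was chosen after the values were seen.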

Additional observations from a re-analysis of the deposited data

Results flagged for a closer look

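For both adenosine receptors, the difference between labels was called as different between Tfh5 and TfhA. Between Tfh5 and Tfh1 it was called for Adora2b but not for Adora2a (edgeR adjusted p = 0.117), and between Tfh1 and TfhA for neither. For Adora2a, the difference between labels was larger under Tfh5 than under TfhA by 8.58 ± 1.76 on the log2 scale (edgeR adjusted p = 0.00623), resting on 243 against 0 counts under Tfh5 and 732 against 466 under TfhA, label Cre-positive against label Cre-negative. All 3 libraries of the first label were above all 3 of the second in both cultures.

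For Adora2b, the difference between labels was lower under Tfh5 than under TfhA by a log2 difference of -9.12 ± 1.46 (adjusted p = 0.000252), with 0 against 192 counts under Tfh5 and 578 against 686 under TfhA. It was likewise lower under Tfh5 than under Tfh1, by a log2 difference of -8.59 ± 1.47 (adjusted p = 0.00460), with 133 against 201 counts under Tfh1, a call lost with limma-voom (adjusted p = 0.123) and in a fit of only the groups compared (adjusted p = 0.278). All 3 libraries labelled Cre-positive were at 0 under Tfh5. All these values contain an empty group, and the cause was not tested.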

How the results depend on the processing

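No call of the 7 genes changed direction under the alternatives run. With only the libraries of the groups compared, the genotype comparison under Tfh5 called 0 of the 7 in place of 2 (Adora2a adjusted p = 0.0636, Adora2b adjusted p = 0.0954), and 0 in place of 1 were called for Tfh5 relative to Tfh1 with the label Cre-positive (Adora2b adjusted p = 0.186), for Tfh5 relative to Tfh1 with the label Cre-negative (where Adora2a did not pass the filter in those libraries alone) and for the difference between the genotype effects under Tfh5 and Tfh1 (Adora2b adjusted p = 0.278). The same setting called 1 in place of 0 for Tfh1 relative to TfhA with the label Cre-positive and 2 in place of 1 with the label Cre-negative, Nt5e being added in both (adjusted p = 0.0276 and 0.0126). limma-voom called 0 in place of 1 for Tfh5 relative to Tfh1 with the label Cre-negative (Adora2a adjusted p = 0.335) and for the Tfh5 and Tfh1 genotype effects (Adora2b adjusted p = 0.123), 1 in place of 0 for the genotype comparison under Tfh1 (Nt5e, adjusted p = 0.0277) and 2 in place of 0 for Tfh1 relative to TfhA with the label Cre-positive (Nt5e and Cd38). DESeq2 called 2 in place of 0 in that last comparison (Nt5e and Adora2b), 2 in place of 1 for Tfh1 relative to TfhA with the label Cre-negative, and 2 in place of 1 for the Tfh5 and Tfh1 genotype effects (Adora2a added, adjusted p = 0.0177). Without the filter on low counts, 1 was called in place of 0 for the genotype comparisons under Tfh1 (Nt5e) and TfhA (Cd38) and for Tfh1 relative to TfhA with the label Cre-positive (Nt5e), and 2 in place of 1 for Tfh1 relative to TfhA and Tfh5 relative to Tfh1 with the label Cre-negative and for the Tfh5 and Tfh1 genotype effects. With the replicate block, Tfh1 relative to TfhA with the label Cre-positive called 1 in place of 0 (Nt5e, 4.21, adjusted p = 0.0297), and no other count of the 7 moved by over 1.5 times. Leaving out single libraries gave 1 to 2 calls for Tfh5 relative to TfhA with the label Cre-positive (1 without Tfh5 replicate 6 or TfhA replicate 3), 0 to 1 for Tfh1 relative to TfhA with that label (1 without TfhA replicate 1 or 6), 0 to 1 for Tfh5 relative to Tfh1 with the label Cre-negative (0 without Tfh1 replicate 5) and 1 to 2 for the Tfh5 and Tfh1 genotype effects (2 without Cre-negative Tfh1 replicate 2). Over all tested genes, the lowest and highest counts of calls under the alternatives were 80 and 668 beside 380 for the genotype comparison under Tfh5, 51 and 281 beside 100 under Tfh1, and 0 and 40 beside 0 under TfhA. For Tfh5 relative to TfhA, Tfh1 relative to TfhA and Tfh5 relative to Tfh1 they were 448 and 1031 beside 633, 170 and 631 beside 302, and 115 and 437 beside 205 with the label Cre-positive, and 360 and 912 beside 596, 129 and 566 beside 262, and 25 and 261 beside 65 with the label Cre-negative. For the genotype effects they were 81 and 286 beside 140 (Tfh5 and TfhA), 18 and 64 beside 28 (Tfh1 and TfhA), and 3 and 58 beside 7 (Tfh5 and Tfh1). Over the 84 wider genes, the 2 called between labels under Tfh5 became 0 with the compared groups alone, 4 without the filter and 7 with DESeq2, and 0 to 3 on leaving out single libraries (0 without Cre-negative Tfh5 replicate 5). Library sizes without the 2 most abundant identifiers moved the median log2 difference of all genes by -0.22 to 0.20, and turned the split of calls for Tfh5 relative to TfhA with the label Cre-negative to 244 higher and 361 lower, against 372 and 224. Entpd1 and Ada held 309.78 and 161.5 counts in all, unevenly within groups, and depth and spread between libraries cannot be told apart for them.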
